A study of Mus musculus with 9 samples.

Results

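Transcription factors that mark fibroblasts and the mesenchyme of the pancreas and its neighbouring organs were examined in the WTg clones. The set was fixed by gene symbol and holds Twist1, Twist2, Prrx1, Tcf21, Snai1, Snai2, Zeb1, Nkx3-2, Barx1 and Gata6. All 10 symbols were found among the 18049 genes of the deposited table, and all 10 averaged 10 normalized counts or more, as 14705 genes did. Their identifiers in the table are ENSMUSG00000035799 for Twist1, ENSMUSG00000007805 for Twist2, ENSMUSG00000026586 for Prrx1, ENSMUSG00000045680 for Tcf21, ENSMUSG00000042821 for Snai1, ENSMUSG00000022676 for Snai2, ENSMUSG00000024238 for Zeb1, ENSMUSG00000049691 for Nkx3-2, ENSMUSG00000021381 for Barx1 and ENSMUSG00000005836 for Gata6. The samples were 9 clones of primary cells grown from pancreatic tumors of WTg mice, whose genotype is EL1-Luc/EL1-Tag x CAG-Mettl3. In these mice the pancreatic elastase I promoter, which is active in acinar cells, drives luciferase and the large T antigen of SV40, and the broadly active CAG promoter drives Mettl3. The labels give the cell type as fibroblasts and the treatment as none, although a protocol field names NMS-P937 at 80 nM for 24 h. Each clone was a colony picked from a passaged culture, and neither the mouse behind each clone nor its age is given in the sources used here. No sample labelled as lacking the Mettl3 transgene was analysed here, so all values describe variation among clones labelled WTg.

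Mesenchymal cells are set up and kept by layers of transcription factors. Twist1, Twist2 and Tcf21 are basic helix-loop-helix proteins that bind E-boxes as dimers, and Prrx1 is a homeobox factor of limb, facial and body wall mesenchyme that is widely used as a fibroblast marker. Snai1, Snai2 and Zeb1 are zinc finger repressors of E-cadherin and other epithelial genes in epithelial-mesenchymal transition. Nkx3-2 and Barx1 are homeobox factors of the mesenchyme around the foregut, in stomach, spleen and pancreas, and Gata6 is a zinc finger factor found in gut mesenchyme, in pancreatic epithelium, in mesothelium and in peritoneal macrophages.

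A normalized count is a read count after scaling by the authors, obtained here by undoing the deposited log2 and subtracting the offset of 4. Library depth was 12198036 to 20453901 reads, and 3 reads, taken as the detection floor, were worth 3.79 to 6.56 normalized counts. The columns are named with 3 different prefixes, which no source used here explains, and the libraries are called A1, B1 to B4 and C1 to C4. The prefixes also differed in Xist, which was between 29664 and 32912 normalized counts in the 4 libraries of prefix B and at most 8.39 in the other 5. Mettl3, the gene carried by the CAG transgene, was at 2184 normalized counts in A1 and at 468 to 621 in the other 8 libraries, although all 9 carry the same WTg label. Whether the other 8 exceed cells without the transgene was not tested, A1 is outside the comparison of prefixes, and relations are also given without it. Of the marker lists, 13 of 14 fibroblast markers and 12 of 12 macrophage markers were above the floor in all libraries, and each list summed to at least 369380 normalized counts in every library. Epcam, an epithelial surface protein, had 0 reads in all libraries. The clones therefore held RNA of fibroblast and of macrophage genes together, and a smaller share of cells of a type cannot be told apart from less RNA per cell in any value below. Levels are not compared between genes, because transcript lengths were not used here.

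The repressors Snai1, Snai2 and Zeb1 were present in every clone, and each varied by at most 4.07 times between libraries. Snai1 was at 674 ± 160 normalized counts (SD, n = 9 clones), with a lowest value of 378, a median of 710.2 and a highest value of 932. The highest library, C4, was 2.47 times the lowest, B3, and each value rested on 261 to 631 reads. Zeb1 was at 1391 ± 412 (SD, n = 9), from 705 in B3 through a median of 1312 to 1930.0 in A1, a range of 2.74 times. Snai2 was at 470.5 ± 210.1 (SD, n = 9), and its lowest, median and highest values were 195 in B3, 409 in C1 and 794 in C2. Library B3 was thus the lowest for all 3 repressors. Their coefficients of variation beyond counting error were 23.3% for Snai1, 29.5% for Zeb1 and 44.3% for Snai2. Among the 14705 genes, Snai1 stood at the 66.9th and Snai2 at the 87.0th percentile of that measure, with Zeb1 between them.

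The proximal promoter of Snai1 is shown because it holds the letters of an E-box that Snail and Zeb factors are known to bind. The 250 bases before the start site lie on the plus strand at chr2:167537945-167538194 (GRCm38.p6, RefSeq), and the capitals mark the single match to CACCTG or, on the other strand, CAGGTG. The match begins 126 bases before the start site, and 17.2% of all 32851 RefSeq promoters held either form in the same window. The promoters of Twist1, Twist2, Prrx1, Tcf21, Nkx3-2 and Barx1 held no match in this window.
Snai1 promoter: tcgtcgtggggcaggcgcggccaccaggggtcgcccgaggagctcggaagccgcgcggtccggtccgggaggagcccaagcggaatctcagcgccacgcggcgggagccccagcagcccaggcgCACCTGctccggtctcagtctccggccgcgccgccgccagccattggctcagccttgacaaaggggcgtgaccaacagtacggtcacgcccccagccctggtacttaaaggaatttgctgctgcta

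Genes around these repressors were described from fixed lists. Cdh1, the E-cadherin gene that they repress, was at 37.1 ± 45.3 normalized counts (SD, n = 9), with 152 in C4 and 8.91 to 54.3 in the other libraries. Cdh2, the N-cadherin gene of mesenchymal cells, was at 1235 ± 459.8 (SD, n = 9). Of 11 cadherin and junction genes, 7 were in the table and 4 of these were above the floor in all libraries. C4 was the library with the highest Cdh1 and also the library with the highest Snai1. Of 8 opposing epithelial factors, such as the Grhl, Ovol and Esrp genes, 4 were in the table, and 2 of these were at or below the floor in every library. Zeb2, the paralog of Zeb1, which macrophages also express, was at 8800.5 ± 1164 (SD, n = 9), and Snai3 had 0 reads in all libraries. Of the 9 other factors of epithelial-mesenchymal transition, 7 were above the floor in every library.

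Prrx1 was present in every clone and varied by 3.13 times. It was at 4151 ± 1521 normalized counts (SD, n = 9), from 2022 in B1 through a median of 4615 to 6319.9 in C2. The 3 lowest libraries were B1, B3 and C1, with 2022, 2140.0 and 2926, and the others were at 3914 or above. Its paralog Prrx2, which is also a mesenchymal homeobox gene, was at 362 ± 99.3 (SD, n = 9) and ranged from 259 in B2 to 559 in C1. C1 was thus among the lowest libraries for Prrx1 and the highest for Prrx2.

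The Twist paralogs differed far more from clone to clone. Twist1 was at 258 normalized counts in A1, at 125, 9.97, 229 and 93.4 in B1 to B4, and at 387, 387, 322 and 288 in C1 to C4. It was therefore nearly lost in B2, where it rested on 7 reads, and the highest library was 38.8 times the lowest. Twist2 was at 411 in A1, at 116, 49.8, 43.4 and 92.1 in B1 to B4, and at 19.4, 293, 269 and 400.2 in C1 to C4. C1, with a Twist1 level as high as any, held the lowest Twist2 level, 15 reads, and the highest Twist2 library was 21.2 times the lowest. B2, with the lowest Twist1, was at 49.8 for Twist2, above B3 and C1. The submitters' processing notes name RSEM, and the part of reads shared by these close paralogs in their values was not examined. Among the partners with which Twist proteins dimerize, Tcf3 was at 1479 ± 123, Tcf4 at 3026 ± 459.0 and Tcf12 at 1994 ± 292 normalized counts (SD, n = 9). Their highest libraries were 1.33, 1.81 and 1.48 times their lowest, with Tcf4 at 1995 in C1. The Id genes, whose products bind those partners and keep them from DNA, ranged over 2.16 to 11.8 times. Id1 was between 676 in B2 and 2309 in B3, Id2 between 1974 in B2 and 4698 in B3, and Id3 between 2165 in B2 and 4682 in B3. Id4 ran otherwise and ranged most, from 41.3 in B2 to 486 in C1, with 52.1 in B3, and its prefix ranges did not overlap (log2 difference 2.30, adjusted p = 0.084 from limma). B2 was thus the lowest library for Twist1 and for all 4 Id genes. Of the 7 partners and inhibitors, all 7 were above the floor in every library.

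Tcf21, a factor of visceral mesenchyme and of fibroblast progenitors, rested on few reads in every clone. It was at 65.7 ± 51.6 normalized counts (SD, n = 9), with a lowest value of 13.9 in B4, a median of 42.8 in C4 and a highest value of 167 in B1. The values rested on 7 to 131 reads, so counting error alone gave a coefficient of variation of 15.01%, against 78.6% observed. The lowest and the highest library were both of prefix B.

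**Figure D1:**
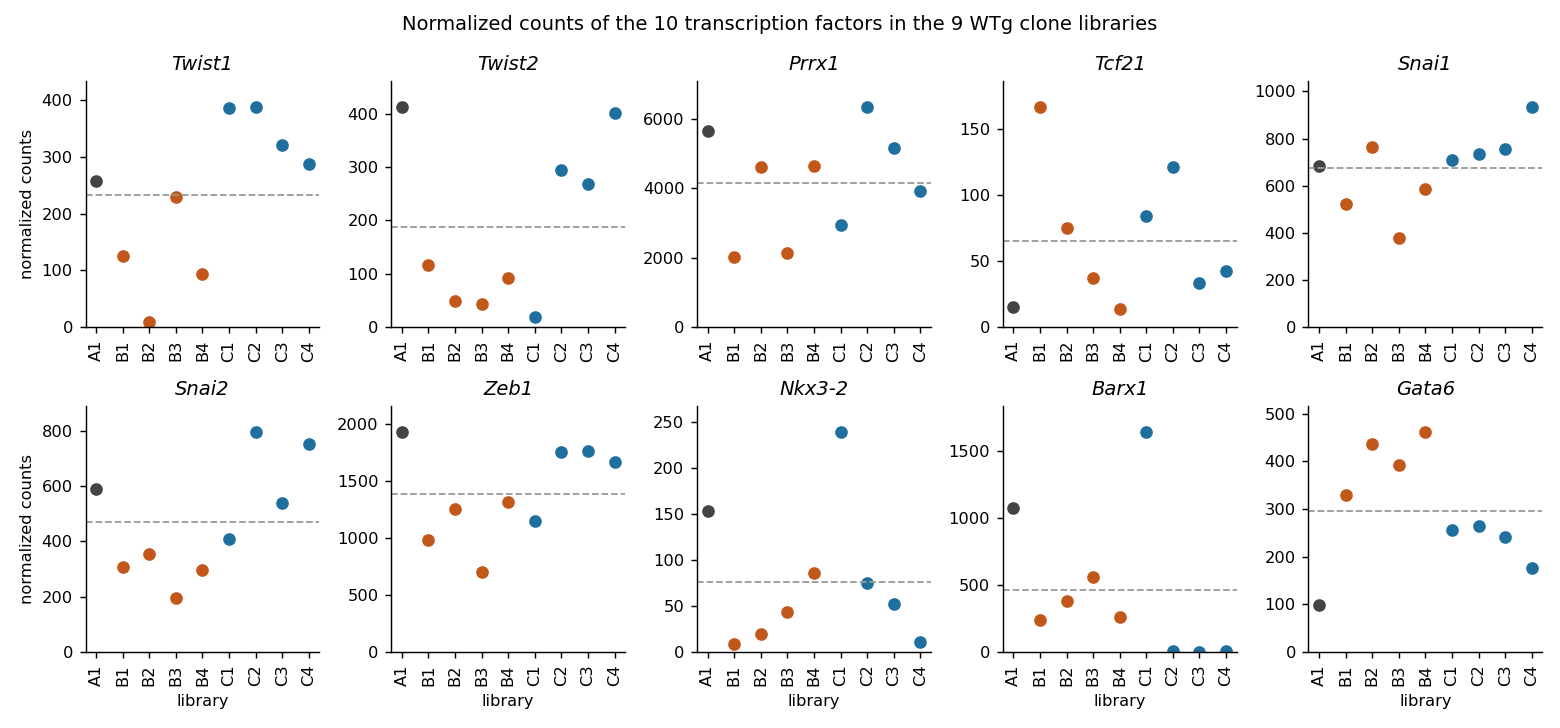
Normalized counts (vertical axis, linear and starting at 0, a separate scale per gene) of the 10 transcription factors in each of the 9 libraries (horizontal axis), with grey points for prefix A, orange for prefix B, blue for prefix C and a dashed line at the mean. Barx1 was at 237 or above in 6 libraries and at 9.37 or below in C2, C3 and C4, while Snai1 stayed between 378 and 932.

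Barx1 showed the widest range of the set. It was at 1070.1 normalized counts in A1, at 237, 379, 557 and 262 in B1 to B4, at 1638 in C1, and at 9.37, 0 and 7.38 in C2, C3 and C4. The last 3 libraries held 6, 0 and 5 reads, and the other 6 held 186 to 1266. In C3 a count of 0 allows up to 4.20 normalized counts, which makes C1 at least 390.2-fold higher. Nkx3-2, the partner of Barx1 in foregut mesenchyme, was at 153 in A1, at 8.91, 19.9, 43.4 and 85.8 in B1 to B4, and at 239 in C1. In C2, C3 and C4 it was at 74.9, 51.8 and 10.3. C1 and A1 were the libraries with the highest levels of both genes, but Nkx3-2 was kept in C2 and C3, where Barx1 was not.

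The promoters of Barx1 and Prrx1 are shown because, of the 7 promoters read, they held the most and the fewest CG dinucleotides. The Barx1 window lies on the plus strand at chr13:48662786-48663035 and the Prrx1 window on the minus strand at chr1:163313651-163313900 (GRCm38.p6, RefSeq). Each holds the 250 bases before the start site, and the capitals mark CG dinucleotides. Barx1 held 40 of them, at the 98.7th percentile of all promoters, and Prrx1 held 4, at the 37.8th, against a median of 6. The CG count and the spread between clones did not run together in every gene: Snai1, with a range of 2.47 times, held 27 (91.4th percentile), and Tcf21, with a range of 12.01 times, held 5 (44.4th). Twist2 held 23, Nkx3-2 held 21 and Twist1 held 18. DNA methylation was not measured in these clones, so the counts describe the sequence only.
Barx1 promoter: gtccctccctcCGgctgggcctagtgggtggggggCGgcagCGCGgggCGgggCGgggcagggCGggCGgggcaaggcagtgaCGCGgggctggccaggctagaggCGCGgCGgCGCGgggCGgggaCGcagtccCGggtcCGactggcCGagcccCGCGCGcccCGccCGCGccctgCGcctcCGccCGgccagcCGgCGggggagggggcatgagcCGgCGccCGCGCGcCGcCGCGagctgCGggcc
Prrx1 promoter: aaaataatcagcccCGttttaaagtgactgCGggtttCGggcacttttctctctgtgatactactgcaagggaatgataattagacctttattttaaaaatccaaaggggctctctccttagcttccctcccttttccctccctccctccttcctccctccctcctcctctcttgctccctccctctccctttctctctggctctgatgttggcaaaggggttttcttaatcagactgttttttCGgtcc

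Of the 10 factors, 5 had a highest library at least 10 times the lowest (Twist1, Twist2, Tcf21, Nkx3-2 and Barx1), against 6.11% of all genes tested. Barx1 alone had a library at 3 or fewer reads, 1 of 10, against 8.07% of all genes. The percentiles of variation beyond counting error were 91.4 for Twist1, 96.2 for Twist2, 95.5 for Tcf21, 97.6 for Nkx3-2 and 98.7 for Barx1. Prrx1 stood at 81.8 and Gata6 at 84.5. These counts describe the 9 libraries, and no test was made of them.

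Gata6 was highest in the libraries of prefix B and lowest in A1. It was at 98.5 normalized counts in A1, at 329.6, 437, 392 and 462 in B1 to B4, and at 256, 265, 241 and 176 in C1 to C4. The B and C libraries did not overlap, and A1, resting on 45 reads, lay below both. Of its relatives, Gata4 was between 0 and 126 normalized counts, and Gata5 was not listed in the table. The highest Gata4 values, 113 and 126, were in B1 and B3.

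Other factors of gut and pancreatic mesenchyme also came and went between clones. Of 19 on the list, 17 were in the table, 11 were above the floor in all libraries, and 6 were above it in some only. Nkx2-3, a homeobox factor of spleen and gut mesenchyme, was at 8.54 in B2 and at 9.05 in C1, at 72.3 in B3, and between 649.8 and 1103 in the remaining 6 libraries. C1, the library with the highest Barx1, was thus among those nearly without Nkx2-3. Isl1, a factor of pancreatic and gut mesenchyme, had 0 reads in C2 and C3, where Barx1 had 6 and 0 reads, but was at 121 in C4, where Barx1 had 5 reads. Tlx1, a factor of spleen formation, was at 103, 46.6 and 87.4 in A1, C1 and C2 and at most 5.05 elsewhere. In contrast, Hand2 was between 400.2 and 1227 and Meis1 between 353 and 698 in all 9 libraries. Of 28 other fibroblast and limb mesenchyme factors, 27 were in the table and 13 were above the floor in every library.

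Some mesothelial genes were high in some of the same libraries. Wt1, a zinc finger factor of mesothelium, was at 388, 71.2, 625 and 271 in B1 to B4 and at 472 in C1, but at 28.4 in A1, at 18.7 in C2 and at 0 in C3 and C4. Upk1b, a mesothelial tetraspanin gene, was between 215 and 1035 in the prefix B libraries and in C1, and at most 31.2 in the other 4. The 5 libraries with these genes all held Barx1, and A1 held Barx1 at 1070.1 with little of either. Krt19, a keratin gene on the same list, ran otherwise, at 145 in B2, 116 in C1 and 120 in C2 and between 7.23 and 35.4 in the other 6. The summed level of the 7 mesothelial genes was 501 to 2230 in prefix B, 38.4 to 1330 in prefix C and 56.9 in A1. Of these 7 genes, 1 was above the floor in all libraries. The part of mesothelial RNA in the Barx1 values was not tested.

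**Figure D2:**
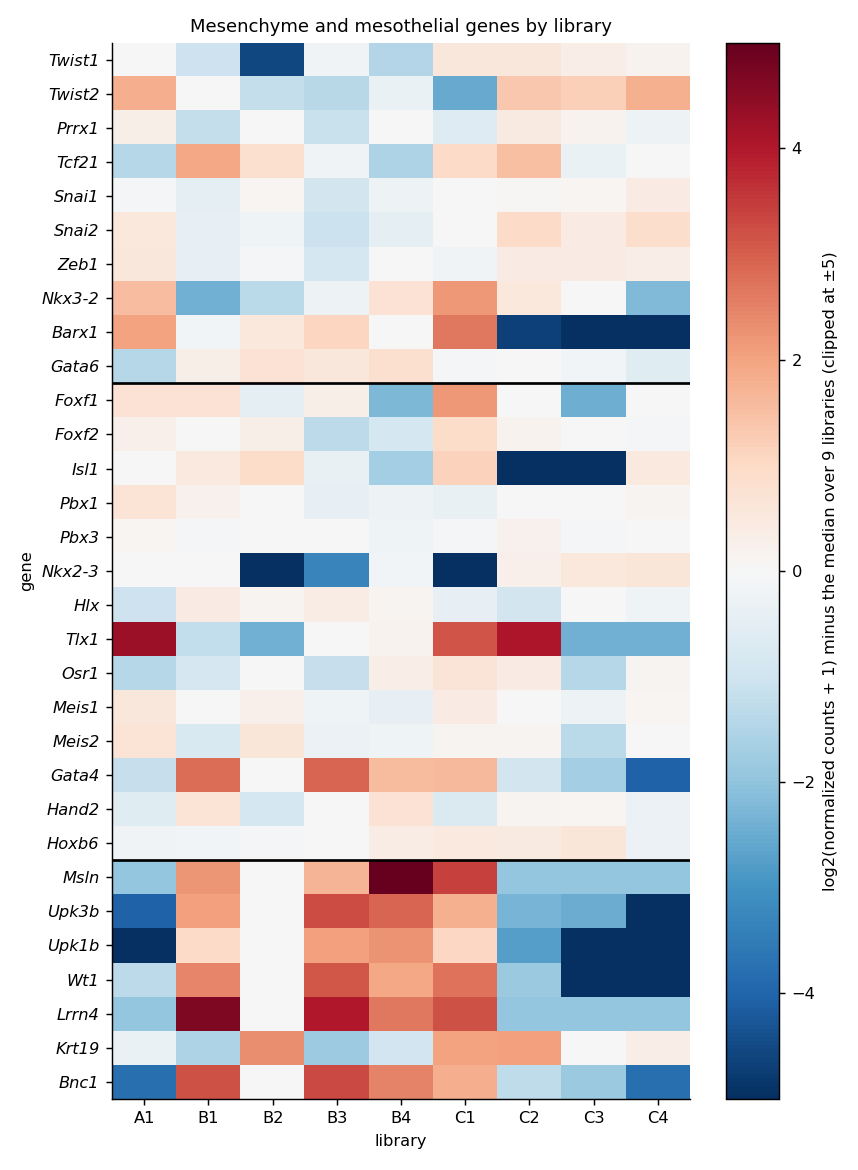
Heat map of log2(normalized counts + 1) minus each gene's median over the 9 libraries (colour, red higher and blue lower, clipped at 5 in either direction) for the 10 factors (top), the other gut and pancreatic mesenchyme factors that averaged 10 normalized counts or more (middle) and the mesothelial genes (bottom), with 1 column per library. The Barx1 row is dark blue in C2, C3 and C4, the Nkx2-3 row in B2 and C1, and the Wt1 row in C3 and C4, while the rows of Snai1, Zeb1 and Pbx3 are pale throughout.

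Whether the factors differed between the libraries of prefix B and those of prefix C, which are the only division of the libraries with replicates, was tested with limma across all genes on log2(normalized counts + 1). Of the 10 factors, 0 passed an adjusted p under 0.05, against 0.197% of all genes, or 29 of 14705. That count of genes was 259 without C3 and 9 to 18 without any other single library. At an unadjusted p under 0.05 there were 5 factors, against 20.1% of all genes. With limma's voom 0 factors passed after adjustment, against 31 of all genes. Before adjustment voom gave 6 factors, but the share of all genes was not computed, so nothing is drawn from that count. Gata6 had 234 normalized counts in prefix C against 405 in prefix B, a log2 difference of -0.79 (95% interval -1.16 to -0.42, adjusted p = 0.11 from limma). Snai2 had 623 in prefix C against 288 in prefix B, a log2 difference of 1.09 (95% interval 0.52 to 1.67, adjusted p = 0.13 from limma). Twist1 had 346 against 114, a log2 difference of 2.22 with a wide interval of 0.35 to 4.08 (adjusted p = 0.20 from limma), the 4 prefix B values reaching from 9.97 to 229. Without B2 the difference of Twist1 was 1.301 (adjusted p = 0.14 from limma). Thus 3 of the 10 factors had prefix ranges that did not overlap, against 10.3% of all genes. The median difference was 0.55 over the 10 factors and -0.02 over all genes.

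The other factors differed less or with larger error. Zeb1 differed by 0.59 (95% interval 0.09 to 1.09), Snai1 by 0.51 (0.06 to 0.97) and Prrx1 by 0.50 (-0.295 to 1.302), all higher in prefix C on the log2 scale and none past the adjusted threshold. The estimate of Prrx1 was 0.30 without B1, and that of Snai1 was 0.34 without B3. For Twist2 the difference was 1.18 (-0.86 to 3.23), with 2.17 without C1 (adjusted p = 0.086 from limma) and 0.74 without C4. For Nkx3-2 it was 0.94 (-1.27 to 3.16), with 0.25 without C1, 0.41 without B1 and 1.72 without C4. These sizes thus rested on single libraries. Barx1 had a difference of -4.13 (-8.54 to 0.28), with -6.26 without C1 and -2.70 without C3, while its mean in normalized counts was higher in prefix C, 414 against 359, since C1 held 1638 and the other 3 at most 9.37. Tcf21 also had opposite signs, 0.28 on the log2 scale (-1.40 to 1.95) against means of 70.6 in prefix C and 73.4 in prefix B. A p that misses the threshold does not show that the prefixes were alike, and the prefixes cannot be told apart from the Xist difference between them.

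**Figure D3:**
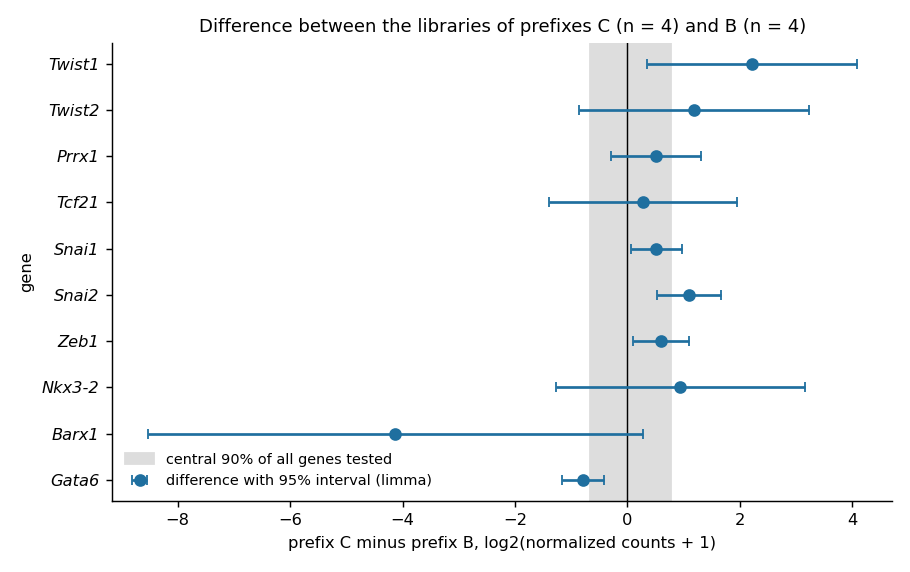
Difference between the libraries of prefix C (n = 4) and prefix B (n = 4) in log2(normalized counts + 1) for each factor (horizontal axis), as points with 95% intervals from limma that are not adjusted for multiple tests, with a grey band for the central 90% of all genes tested (-0.67 to 0.78). The interval of Gata6 lies wholly below 0 and those of Snai2, Twist1, Zeb1 and Snai1 wholly above it, and the interval of Barx1 spans -8.54 to 0.28.

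The marker lists also differed between the prefixes in their estimates, with 0 of the genes on any list past the adjusted threshold in limma. Of the 14 fibroblast markers, 11 were higher in prefix C by their estimate, with a median log2 difference of 0.69, and their summed level was 369380 to 591983 normalized counts in prefix B and 513106 to 1011078 in prefix C. Pdgfra, a receptor of fibroblasts, had a log2 difference of 1.85 with no overlap between the prefixes (adjusted p = 0.11 from limma). Dcn and Lum, which encode matrix proteoglycans, had estimates in the other direction, -1.79 and -2.07 (adjusted p = 0.18 and 0.31 from limma), so the list did not move as a whole. All 12 macrophage markers were lower in prefix C by their estimate, with a median of -0.31, and their summed level was 646555 to 732639 in prefix B and 512485 to 815532 in prefix C. The part of these markers in the differences of Snai2, Twist1, Zeb1 and Snai1 was not tested. The medians were -3.52 for 7 mesothelial genes, -0.24 for 5 peritoneal macrophage genes, 1.60 for 3 epithelial, 2.58 for 6 acinar and -0.35 for 3 endothelial markers, and 0.14 for 4 pericyte and stellate cell genes. Among the factor lists they were -0.07 for 7 Twist partners and Id genes, 0.27 for 8 other transition factors, 0.07 for 2 opposing epithelial factors, 0.08 for 15 gut and pancreatic factors, 0.25 for 20 other mesenchyme factors and 0.39 for 4 junction genes. On the acinar list, 5 genes were higher in prefix C by their estimate and 1 was lower. Prefix C was not uniform there: the acinar marker Ctrb1 was at 610 in C3, at 43.7 in C2 and at 0 in C1 and C4.

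Whether the factors rose and fell together with each other or with the cell types around them was examined in 9 relations over the 9 libraries, on log2(normalized counts + 1). Snai1 and Snai2 gave r = 0.841 (exact two-sided permutation p = 0.0031, adjusted over the 9 relations 0.028) and rho = 0.683 (exact permutation p = 0.050, adjusted 0.15). Without B1 and B3, the libraries farthest from the median of Snai1, r was 0.632 (exact permutation p = 0.12, n = 7). Leaving out the extreme libraries narrows the range of Snai1 and can lower r by itself, so this does not show that the relation rested on them. Without A1 it was 0.855, and with the libraries of prefixes B and C each centred on their own mean it was 0.718 (exact permutation p = 0.042). The coefficient thus kept its sign within the prefixes, but its adjusted p there was 0.19 (exact permutation).

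Prrx1 rose with the fibroblast score, the mean z-score of Col1a1, Col1a2, Col3a1, Pdgfra, Pdgfrb and Dcn, which encode collagens, growth factor receptors and a matrix proteoglycan. Here r was 0.809 (exact permutation p = 0.0075, adjusted 0.034) and rho was 0.80 (exact permutation p = 0.014, adjusted 0.11). Without B1 and B3 the value of r was 0.655 (exact permutation p = 0.11, n = 7), without A1 it was 0.798, and centred within prefixes it was 0.761 (exact permutation p = 0.038, adjusted 0.19). The score was highest in A1 and C2, which also held the highest Prrx1. Dcn, a gene of the score, ran otherwise. It was at 2066 and 2032 normalized counts in B1 and B3, the lowest libraries for Prrx1, and lowest, at 217, in C2. Relations of Prrx1 with single genes of the score were not tested. For Twist1 and the same score r was 0.252 (exact permutation p = 0.48, adjusted 0.62) and rho 0.483 (p = 0.19, adjusted 0.35, exact permutation), and r turned to -0.537 within prefixes. For Tcf21 and the score r was -0.0905 (exact permutation p = 0.81, adjusted 0.91) and rho -0.117 (p = 0.78, adjusted 0.78, exact permutation), and r was 0.264 within prefixes. Neither bHLH factor therefore had a relation with the fibroblast score that the test could show.

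Twist1 and Twist2 gave r = 0.324 (exact permutation p = 0.44, adjusted 0.62) and rho = 0.25 (exact permutation p = 0.52, adjusted 0.59). Without B2 and B4 r was 0.0151, and within prefixes it was 0.0119, so no relation between these paralogs was detectable. Twist1 and Prrx1 gave r = -0.0122 (exact permutation p = 0.98, adjusted 0.98) and rho = 0.35 (exact permutation p = 0.36, adjusted 0.46). Their r changed sign with the libraries used, from 0.649 without B2 and B4 to -0.572 within prefixes.

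Zeb1 and Zeb2 ran opposite over the 9 libraries, but no relation was detectable within the prefixes. The pooled r was -0.741 (exact permutation p = 0.022, adjusted 0.049) and rho was -0.75 (exact permutation p = 0.025, adjusted 0.11). Zeb2 was between 9622.5 and 10228 normalized counts in prefix B and between 7779.5 and 8654 in prefix C, without overlap, and it was 6983 in A1. Within prefixes r was -0.084 (exact permutation p = 0.84), where it was not distinguishable from 0. Without A1 and B3 r was -0.596 (exact permutation p = 0.16, n = 7).

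Gata6 rose with the mesothelial score of Upk3b, Upk1b, Wt1, Krt19 and Bnc1, with r = 0.750 (exact permutation p = 0.017, adjusted 0.049) and rho = 0.617 (exact permutation p = 0.086, adjusted 0.19). Without A1 and B4 r was 0.737 (exact permutation p = 0.069, n = 7), and within prefixes it was 0.557 (exact permutation p = 0.30), where it was no longer distinguishable from 0. C1 had the highest mesothelial score with a Gata6 level of 256, below every prefix B library. With the score of 5 peritoneal macrophage genes (Icam2, Prg4, Tgfb2, Cd93 and Rarb), which Gata6 is known to control in those cells, r was 0.415 (exact permutation p = 0.27, adjusted 0.49) and rho 0.417 (p = 0.27, adjusted 0.40, exact permutation). Without A1 and B4 r was 0.590, and within prefixes it was 0.456. Of 9 such genes 8 were in the table, 3 were above the floor in all libraries and 1 in none. Their summed level was 10077 to 12222 normalized counts in prefix B, 8713 to 10188 in prefix C and 8722.5 in A1. Most of that sum was Cd93, at 9136 ± 1563 (SD, n = 9), so it says little of the other genes. Tgfb2, the next at 1100 ± 374 (SD, n = 9), was higher in prefix C by its estimate (log2 difference 0.91).

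**Figure D4:**
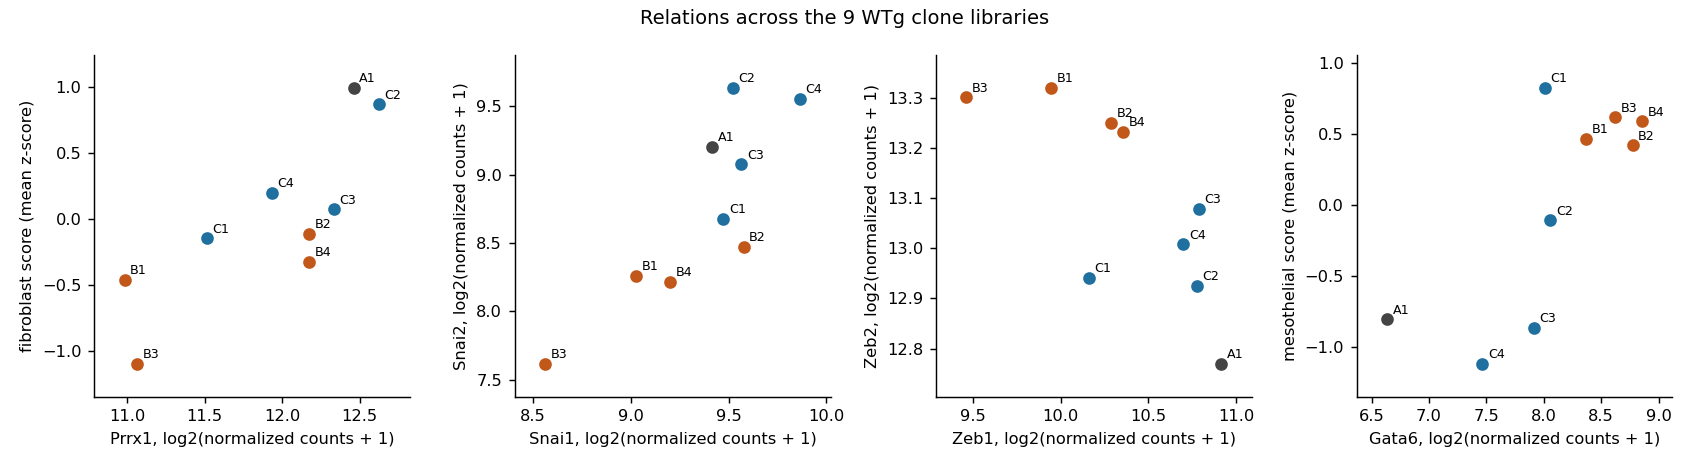
Relations across the 9 libraries for 4 pairs of measures, with log2(normalized counts + 1) of Prrx1, Snai1, Zeb1 and Gata6 on the horizontal axes and, on the vertical axes, the fibroblast score, Snai2, Zeb2 and the mesothelial score (scores are mean z-scores, points are libraries coloured by prefix as grey A, orange B and blue C). A1 and C2 lie at the top right of the Prrx1 panel and B1 and B3 at its lower left, and in the Zeb panel the prefix B libraries lie above all others.

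The genes whose log2 levels were most like those of a factor were named for 3 factors, as a description over 9 libraries that share prefixes and depth. Among 12300 genes that averaged 50 normalized counts or more, Prrx1 was most like Chsy1 (r = 0.960), Tubb3 (0.957) and Lockd (0.949). Chsy1 encodes a chondroitin synthase of the extracellular matrix, and Tubb3 encodes a beta tubulin. The values within prefixes were 0.980 for Chsy1, 0.957 for Tubb3 and 0.927 for Lockd, a description only, since the genes were chosen by r over the same libraries. Twist1 was most like Zfp783 (r = 0.915), Gm2446 (0.902) and Lzic (0.887), with 0.921, 0.927 and 0.826 within prefixes. Gata6 was most like Gdf3 (r = 0.973), mt-Nd4l (0.972) and Cpeb2 (0.960), and these fell to 0.706, 0.681 and 0.758 within prefixes. The search was set for these 3 factors only, so Barx1 and the others were given no such genes.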

How the data were processed

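RNA of 9 WTg clones was sequenced from stranded mRNA libraries. The submitters' processing notes name FastQC 0.11.9, STAR 2.7.10, RSEM 1.3.3 and GRCm38. The deposited table holds log2 values, which the authors made as log2(normalized count + 4). Normalized counts were recovered as 2 to the power of the value minus 4, and reads from the smallest step of each library: 100% of nonzero values under 1000 reads came out whole within 0.1. Depth was 12198036 to 20453901 reads, and floors and intervals cover counting error only. A further 6 columns of per-sample values were not used, since no labelled sample matches them. Column names show the group but not the sample, and no label says whether clones came from separate mice. Xist set prefix B apart from the other libraries, but whether the prefixes stand for different mice was not tested. The p-values therefore measure only the spread between these libraries.

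Prefixes B and C were compared with limma 3.58.1 (R 4.3.3), with a trend, on log2(normalized counts + 1) over 14705 genes with a mean of at least 10, with Benjamini-Hochberg adjustment. Count models were not used on the log2 table, and limma's voom on recovered reads was an alternative. Correlations were tested by exact two-sided permutation (scipy 1.17.1). Scripts were tested on simulated data. The members, gene lists and tests were chosen with earlier results of these data known. By rule the text could name all 10 members, list genes that passed the test or had the 3 highest or 3 lowest means of their list, direct paralogs and partners, Cdh1 and Cdh2, and the 3 genes most alike by r; other list genes with values, such as Nkx2-3, Isl1, Tlx1, Wt1, Upk1b, Krt19, Pdgfra, Dcn, Lum and Id4, were chosen after their values were seen. Promoters came from RefSeq (GRCm38.p6, 7 of 10 members listed). Alternatives were other pseudocounts, filters, scalings and leaving out each library.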

Additional observations from a re-analysis of the deposited data

Results flagged for a closer look

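Of 39 genes examined for a library far from the others, 4 had one, and none of the 10 factors did. The measure is the gap between the extreme library and its nearest neighbour divided by the range of the 9 libraries. Chance alone carries it past the critical value in about 5% of genes only where values are normally distributed. The measure was taken on normalized counts, which were skewed in genes such as Barx1 (mean 462, SD 557, n = 9). Some of the list genes were also chosen after their values were seen. That rate therefore does not apply here, and the share over all genes was not computed, so the 4 genes are a description only. Cdh1 was far higher in C4 than elsewhere (0.683, at 152 normalized counts). C1 stood apart for 3 genes: it was the highest for Foxf1, a forkhead factor of gut mesenchyme (0.658, at 398), and for Tbx18, a T-box factor of mesothelium and mural cells (0.538, at 1356), and the lowest for Tcf4 (0.556, at 1995). C1 was also the highest library for Barx1 and Nkx3-2 and the lowest for Twist2.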

How the results depend on the processing

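The levels of the 10 factors moved by less than 1 SD in all 120 alternative values, but these settings could hardly give another outcome. Leaving out 1 of 9 libraries cannot move a mean by 1 SD, and the alternative scaling factors were only 0.954 to 1.033. Of 170 alternative prefix differences, none was called (lowest adjusted p = 0.053 from limma, Barx1 without C1), and 2 changed sign, both for Tcf21: -0.33 without B4 and -0.044 without C2, in a range up to 0.84 without B1. The 29 genes called between prefixes became 9 to 259 when 1 library was left out, with 259 without C3 and at most 18 otherwise, and 19 with no filter on low values; the cause was not tested. Among the relations, r for Zeb1 and Zeb2 lost its adjusted call with upper-quartile scaling (-0.732), without the 2 farthest libraries (-0.596), without A1 (-0.673) and within prefixes (-0.084). Without the 2 farthest libraries and within prefixes, calls were also lost for Prrx1 and the fibroblast score (0.655 and 0.761), Snai1 and Snai2 (0.632 and 0.718), and Gata6 and the mesothelial score (0.737 and 0.557, and 0.749 without A1); these settings use fewer libraries or pairings. Signs changed for Twist1 and Prrx1 without the 2 farthest (0.649), Twist1 and the fibroblast score within prefixes (-0.537), Tcf21 and that score without A1 (0.278) and within prefixes (0.264), and Gata6 and the peritoneal score with unscaled genes (-0.076). The codes 7A and 11A recur in column names under both prefixes, with a meaning no source used here gives. A fit with them as a replicate block, added after seeing the data, uses 2 pairs and 1 residual degree of freedom and called 0 genes in limma (1073 at an unadjusted p under 0.05). Libraries sharing a code did not deviate together across genes (r = -0.0369 and -0.0324), but 2 pairs cannot show what the codes mean. Values under 10 reads limit Twist1 in B2, Tcf21 in A1, Nkx3-2 in B1 and C4, and Barx1 in C2, C3 and C4.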
